A study of Mus musculus with 3 samples.

Results

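In mouse embryonic stem cells of the line E14, the peaks of L1 RNA ChIRP left 273 autosomal stretches of over 1 Mb without a peak, and these stretches were chosen by the peak positions themselves. ChIRP captures an RNA with biotinylated DNA probes, here 59 nt long, and recovers the chromatin crosslinked to it. On each of chromosomes 1 to 19 the peaks were sorted by start, and every gap longer than 1000000 bp between the end of a peak and the start of the next was kept. The 273 stretches were 1.24% of the 21966 gaps between neighbouring autosomal peaks (build mm9). The series also holds a Malat1 RNA ChIRP library and an input DNA library from the same cell line, each a single library, and neither was analysed here. Since the list comes from 1 library, no value below has a replicate error, and since position selected the stretches, their number, length and place are descriptions without a test. The labels call the sequenced molecule genomic DNA, whereas their protocol text describes copying the retrieved RNA into cDNA, so what was sequenced is not settled. Read depth is unknown, and a stretch without a peak can hold signal below the caller's limit.

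L1 elements are retrotransposons that copy themselves through an RNA, and their copies lie unevenly in mammalian genomes. They are known to be dense in AT-rich, gene-poor chromosome bands and sparse in GC-rich, gene-dense bands, where many housekeeping and developmental genes lie. Mouse autosomes have their centromere at one end, where numbering begins, so each has a single long arm that runs to a distal end.

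The promoters of 3 genes known to lie in the longest stretches are shown as examples of CG dinucleotides at gene starts there. They were picked for well-known genes and do not stand for the sequence of the stretches, which was not read. All 3 are richer in GC than the median promoter (62%) of the genes placed there between anchor genes, as described below. Lin28a, on chromosome 4, encodes an RNA-binding protein of pluripotent cells. Ptpn11, on chromosome 5, encodes the phosphatase SHP2, and Tubb3, on chromosome 8, encodes a neuronal tubulin. The sequences are RefSeq's for build GRCm38.p6, run from 250 bases before the start of transcription to 50 after it, and carry each CG dinucleotide in capitals. Their coordinates on that build are chr4:134018767-134019066 (minus strand), chr5:121191348-121191647 (minus strand) and chr8:123411303-123411602 (plus strand), and cannot be set against the mm9 positions of the stretches. The 3 promoters hold 10, 37 and 26 CG dinucleotides (median of the genes placed between anchors 21, quartiles 10 and 30), at a GC content of 63.3%, 68.7% and 67.3%. The 10 of Lin28a equal that first quartile and lie below the median of 14 for the other autosomal genes described below.
Lin28a: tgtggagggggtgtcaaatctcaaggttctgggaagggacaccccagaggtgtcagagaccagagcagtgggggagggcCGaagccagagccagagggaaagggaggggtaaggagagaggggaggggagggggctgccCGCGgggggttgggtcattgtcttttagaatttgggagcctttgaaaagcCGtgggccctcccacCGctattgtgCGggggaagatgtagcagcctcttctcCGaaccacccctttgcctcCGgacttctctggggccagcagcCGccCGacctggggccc
Ptpn11: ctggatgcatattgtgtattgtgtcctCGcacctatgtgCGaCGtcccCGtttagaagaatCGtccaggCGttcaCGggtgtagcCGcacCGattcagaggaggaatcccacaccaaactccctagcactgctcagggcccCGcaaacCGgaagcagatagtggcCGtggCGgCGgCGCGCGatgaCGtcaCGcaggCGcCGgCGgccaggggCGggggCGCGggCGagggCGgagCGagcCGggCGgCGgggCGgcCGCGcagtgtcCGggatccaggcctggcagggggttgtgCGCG
Tubb3: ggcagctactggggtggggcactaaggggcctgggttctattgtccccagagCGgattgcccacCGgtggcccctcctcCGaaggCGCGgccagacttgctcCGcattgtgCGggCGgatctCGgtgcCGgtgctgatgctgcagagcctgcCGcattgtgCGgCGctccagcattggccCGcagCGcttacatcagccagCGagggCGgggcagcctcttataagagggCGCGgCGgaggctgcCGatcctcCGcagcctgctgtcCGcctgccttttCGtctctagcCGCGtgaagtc

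Together the stretches covered 552 Mb, or 22.9% of the 2408 Mb that the peaks of the 19 autosomes span. Outside them the autosomes held 11.8 peaks per Mb, against 9.13 per Mb over the whole span. Their median length was 1.58 Mb, with quartiles of 1.20 and 2.28 Mb, whereas the median of all autosomal gaps was 36.1 kb. The class from 1 to 1.5 Mb held 126 stretches (46.2%) and 27.7% of their length. The 53 stretches of 2 to 3 Mb held 23.4% of the length, the 27 of 3 to 5 Mb held 18.2% and the 10 above 5 Mb held 12.9%. At the limit itself there was no break in length: the 5 shortest stretches measured 1000426 to 1010455 bp, and the 5 gaps just too short to be kept measured 990942 to 999588 bp.

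Chromosomes differed in number and in length of the stretches. Chromosome 2 held the most, 21, followed by chromosomes 5, 6, 9 and 11 with 20 each, and chromosome 3 held the fewest, 5. Per length, chromosome 19 came first with 22.3 stretches per 100 Mb of span, ahead of chromosome 11 with 16.8 and chromosome 9 with 16.6, and chromosome 3 came last with 3.20. Chromosomes 11 and 19 thus had 45.5% and 44.3% of their spans in stretches, and chromosome 5, next in order, 32.3%. At the other extreme were chromosome 3 with 5.77%, chromosome 14 with 11.4% and chromosome 1 with 13.7%. Chromosomes 11 and 19 also had the fewest peaks per Mb of span among the autosomes, 5.20 and 6.38, and chromosome 3 the most, 12.6. Stretch share and peak density come from the same peaks and are not separate traits. The median stretch was longest on chromosome 11, at 2.42 Mb, and ranged from 1.21 Mb on chromosome 1 to 1.78 Mb on chromosome 17 on the other 18 autosomes. The longest stretch of a chromosome ranged from 2.14 Mb on chromosome 14 to 13.4 Mb on chromosome 4. A stretch above 3 Mb occurred on 14 of 19 autosomes, 37 times in all.

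**Figure D1:**
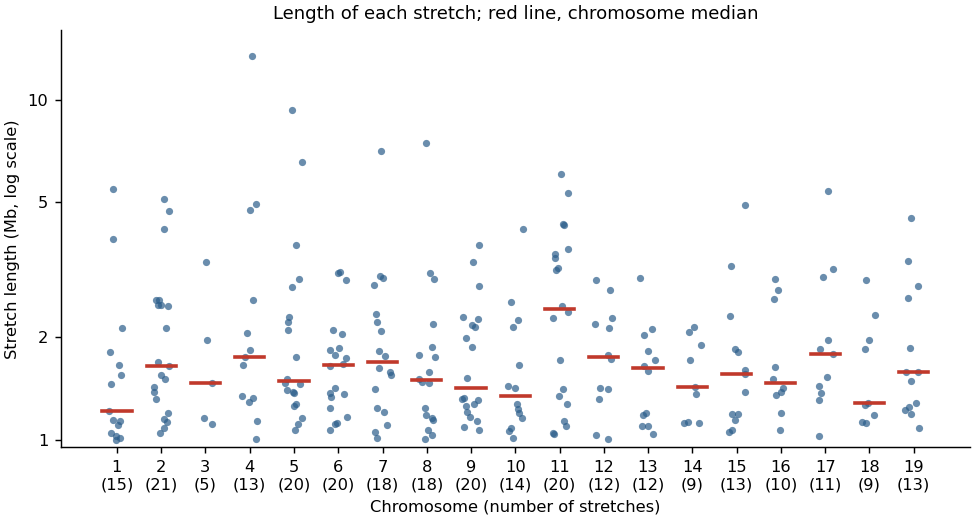
Each point is 1 stretch, with its length in Mb on a log axis and its chromosome along the horizontal axis (number of stretches in brackets, points spread sideways for visibility). The red line is the chromosome's median, highest on chromosome 11 at 2.42 Mb, and the highest point is the 13.4 Mb stretch of chromosome 4.

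The 10 longest stretches lay on 8 chromosomes and together measured 71.1 Mb. The longest, chr4:128116539-141519634 (13.4 Mb), began 125 Mb beyond the first peak of chromosome 4 and ended 10.6 Mb before its last. Only 2 peaks lay within 1 Mb of its centromere-side border and 1 within 1 Mb of its distal border. Next came 2 neighbours on chromosome 5, chr5:117061806-126358605 (9.30 Mb) and chr5:110498397-117051557 (6.55 Mb, the fifth longest). A single peak of 10.2 kb separated them, so that 15.9 Mb of chromosome 5 held 1 peak. On their outer sides the pair differed, with 25 peaks within 1 Mb of the centromere-side border and 8 within 1 Mb of the distal one. The third longest, chr8:121289369-128746161 (7.46 Mb), ended 2.99 Mb before the last peak of chromosome 8. The fourth, chr7:39284879-46358689 (7.07 Mb), lay in the centromere-side part of its chromosome, centred at 26.9% of the span, with 5 and 9 peaks within 1 Mb of its borders. No gene was placed in it, and how much of it is unsequenced in mm9 was not tested, so its length and rank may not reflect sequence that could have held a peak. Without it the stretches took 22.6% of the autosomal span.

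Chromosome 11 held the sixth longest, chr11:93663138-99688342 (6.03 Mb), and the ninth, chr11:112917226-118242495 (5.33 Mb). The seventh was chr1:133583510-139043819 (5.46 Mb), with 6 and 15 peaks beside it, the only one of the 10 with no other stretch within 1 Mb. The eighth was chr17:24926892-30306809 (5.38 Mb), centred at 26.2% of the span, and the tenth chr2:164172073-169261030 (5.09 Mb), centred at 91.6%. Sparse flanks were common among these stretches: 7 of the 10 had a border with only its own border peak within 1 Mb, and 12 of the 20 borders had 3 peaks or fewer. Runs of unsequenced bases in mm9 also hold no peak, and their part in any stretch was not tested.

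Genes could be placed in the longest stretches only by order, because no gene table of mm9 was used. The gene counts below are therefore no measure of gene density, and no genes per Mb were computed. Well-known genes of each region served as anchors, by general knowledge of the mouse map, and the genes between the outermost anchors were read from the RefSeq annotation of GRCm38.p6, which orders genes but whose coordinates do not apply to mm9. The 42 anchors used for the 3 longest stretches all stood in that annotation in the order in which they had been listed. In the 13.4 Mb stretch of chromosome 4 the anchors ran from Hdac1, a histone deacetylase, to Epha2, an ephrin receptor, with 213 protein-coding genes from one to the other. They included Arid1a, a subunit of the BAF chromatin remodelling complex, and Kdm1a, which removes methyl groups from histone H3. Lin28a, the kinase gene Lck, the transcription factor genes Runx3 and Pax7, the inhibitor of differentiation Id3 and the signal gene Wnt4 lay there too, as did clusters of Padi and Pla2g2 genes, which encode peptidylarginine deiminases and secreted phospholipases. The annotation also placed 117 long noncoding RNA genes and 12 microRNA genes in this interval.

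In the 9.30 Mb stretch of chromosome 5 the anchors ran from Nos1, the neuronal nitric oxide synthase, to Scarb1, a receptor for high-density lipoprotein, with 121 protein-coding genes. Among these were the T-box genes Tbx3 and Tbx5, regulators of limb and heart formation, the Oas cluster of interferon-induced oligoadenylate synthetases, and the chromatin genes Kdm2b and Setd1b. In the 7.46 Mb stretch of chromosome 8 they ran from Irf8, a transcription factor of myeloid cells, to Agt, which encodes angiotensinogen, with 68 protein-coding genes. The forkhead genes Foxf1, Foxc2 and Foxl1 and the pigmentation gene Mc1r lay between them. So did 48 genes of 5S ribosomal RNA, the tandem cluster for which this end of the chromosome is known.

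Anchors for 5 more of the 10 longest stretches were chosen after their positions were seen. From Col1a1 to Erbb2 on chromosome 11 (the 6.03 Mb stretch) the annotation listed 90 protein-coding genes, among them the Hoxb cluster of homeobox genes that pattern the body axis. The interval from Grb2 to Birc5 on the same chromosome (the 5.33 Mb stretch) held 55. From Axin1, a Wnt pathway scaffold, to the kinase gene Pim1 on chromosome 17 there were 71, from Mdm4 to Nr5a2 on chromosome 1 there were 65, and from Mmp9 to Sall4 on chromosome 2 there were 46. Nr5a2 and Sall4 encode transcription factors known in embryonic stem cells. The 8 intervals held 729 protein-coding genes in all and 0 odorant or vomeronasal receptor genes, by gene symbol. Such receptors made up 1456 (7.05%) of the 20665 autosomal protein-coding genes of the annotation. Receptor genes lie in large clusters and intervals were not drawn at random, so this is a description and not a test.

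Promoters of the genes between the anchors of the 3 longest stretches had a higher median GC content and CG count than those of other genes. Of the 402 protein-coding genes between the anchors of the 3 longest stretches, 329 (81.8%) had a promoter in the RefSeq table. A gene with several was given the median of its promoters. The median GC content of the 329 was 62%, with quartiles of 55.3% and 67.7%. They held a median of 21 CG dinucleotides in 300 bases, with quartiles of 10 and 30. For 15880 of the 19425 other autosomal genes, which exclude those between the anchors of the 8 intervals and those of chromosome 18, not used here, the medians were 56.6% (48.3 to 64.3) and 14 (4 to 24). At least 20 CG dinucleotides were found in 52.6% of the first and 36.1% of the second. The other genes still include odorant and vomeronasal receptor genes, of which the 8 intervals held 0. Genes in stretches without anchors were not removed from them either. How far this shapes the contrast was not tested. In the chromosome 4 interval alone, with 187 promoters, the medians were 61.7% and 18. Among the 5 added intervals the direction of the CG count was not uniform. From Mdm4 to Nr5a2 on chromosome 1, 62 of 65 genes had a promoter, with a median GC content of 58.6% but a median of 11.5 CG dinucleotides, fewer than in other genes. From Axin1 to Pim1 on chromosome 17, 60 of 71 had one, with medians of 64.7% and 24. The 5 remaining intervals, taken singly, had promoters for under 80% of their genes, and no median is given for them. From these incomplete sets, both medians lay above those of other genes in each. The 5 include the chromosome 5 interval (74.4%) and the chromosome 8 interval (76.5%). Those intervals supplied 90 and 52 of the 329 pooled promoters, so the pooled medians rest in part on incomplete intervals. The quartile ranges overlapped widely, and neighbouring genes share their region's base composition, so no test was made.

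The stretches were more frequent, and longer, towards the distal ends, where 165 of 273 (60.4%) were centred beyond the middle of the span. In windows of 10% of the span, pooled over the 19 autosomes, the share of sequence in stretches was lowest next to the centromere, 8.06% in the first 10% of the span. It lay between 16.5% and 22.0% in each window from 10% to 70%, and was 24.8% from 70% to 80%, 34.4% from 80% to 90% and 46.2% beyond. Of the 273 stretches, 99 were centred in the last 25% of the span (36.3%, exact 95% binomial interval 30.6 to 42.3) and 48 in the first (17.6%, 13.3 to 22.6). These intervals cover counting error only and treat stretches as independent, although 148 of the 273 had another within 1 Mb. Since position selected the stretches, the intervals are no test of their place. The longer ones were placed further out: the median position was 58.5% of the span for stretches up to 2 Mb, 66.3% for those of 2 to 3 Mb and 71.3% for those above 3 Mb. Of the 10 above 5 Mb, 6 were centred in the last 25% and 0 in the first.

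**Figure D2:**
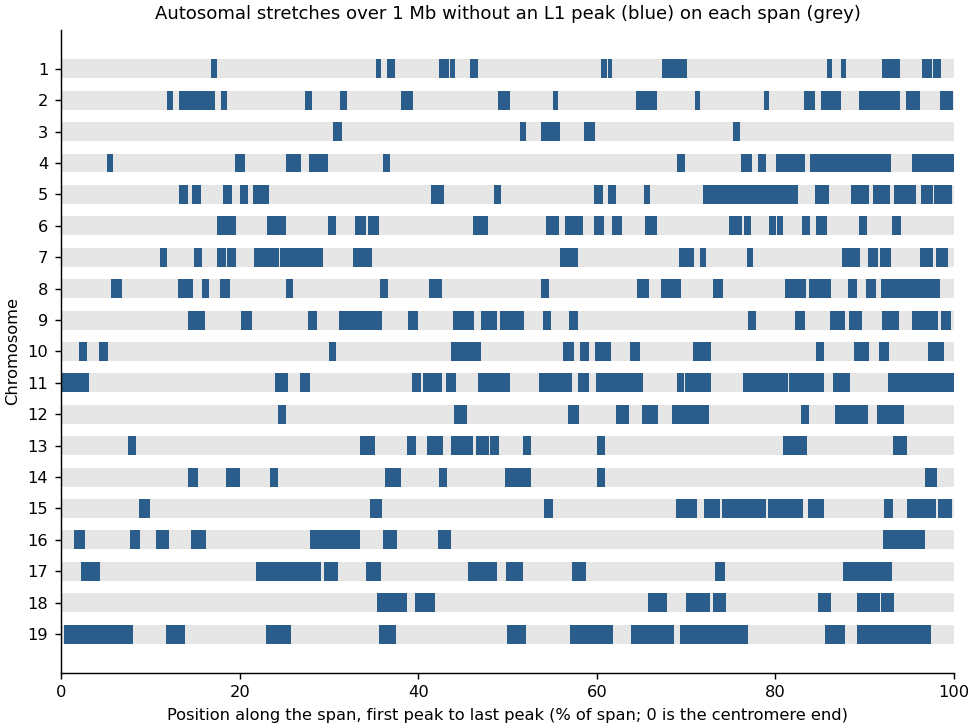
Each grey bar is the span of 1 autosome from its first to its last peak, drawn to the same width (0 to 100%, centromere end at 0), and blue marks the stretches. Blue is widest at the right on chromosomes 4, 5 and 11, whereas chromosome 3 has 5 stretches, 0 of them in its first 25%.

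This distal weighting was seen on most chromosomes, but to very different degrees. The last 25% of the span held a larger share of stretch sequence than the first on 17 of 19 autosomes, the exceptions being chromosomes 14 (5.61% against 14.6%) and 16 (18.8% against 22.1%). The mean over chromosomes was 37.1% ± 22.9 (SD, n = 19) in the last 25%, 22.9% ± 16.7 from 50% to 75% of the span, 20.7% ± 13.2 from 25% to 50% and 14.3% ± 11.8 in the first 25%. Chromosomes 4, 5 and 11 had the highest shares in the last 25%, with 75.9%, 75.1% and 73.5% in stretches, followed by chromosome 15 with 61.9%. On chromosome 4 the window just before it, from 50% to 75% of the span, held 3.60%. Chromosome 19 was high at both ends, with 47.0% of its first 25% and 49.8% of its last, and highest from 50% to 75%, with 69.7%. Chromosomes 3 and 18 had 0% of their first 25% in stretches, while their last 25% held 2.96% and 21.9%.

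A stretch reached within 5 Mb of the last peak on 13 autosomes and within 5 Mb of the first peak on 5. The distance from the last peak to the nearest stretch had a median of 1.98 Mb over the 19 autosomes, against 16.3 Mb from the first peak. On chromosomes 4 and 11 the last peak of the chromosome was itself the distal border: chr4:147176933-152119510 (4.94 Mb) and chr11:118250417-121757518 (3.51 Mb) were each closed by a lone final peak, of 7008 and 3765 bp. Without that peak neither would have counted, since sequence beyond the last peak is no gap by the rule. Close to the first peak, stretches began 0.163 Mb away on chromosome 11 and 0.220 Mb away on chromosome 19. The longest stretch lay in the last 25% on 8 autosomes and in the first on 2, chromosomes 6 and 19.

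**Figure D3:**
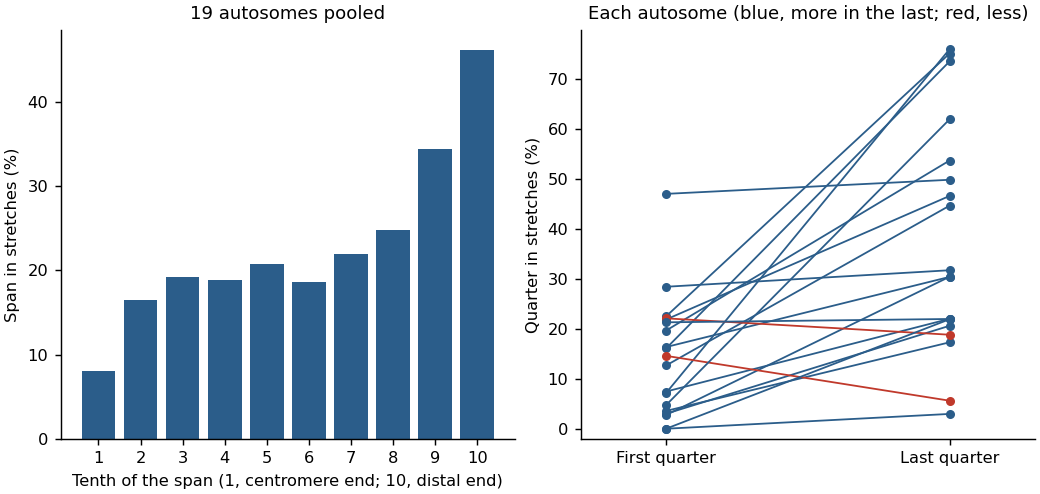
Left, the share of span in stretches (%) for each 10% of the span, all 19 autosomes pooled, from 8.06% at the centromere end to 46.2% at the distal end. Right, the share of the first and of the last 25% in stretches (%), 1 line per autosome, blue for the 17 with more in the last and red for chromosomes 14 and 16.

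Stretches often followed one another with few peaks between them. Of the 273, 148 (54.2%) had another stretch within 1 Mb. Between them stood 88 islands of at most 1 Mb, which held a median of 2 peaks over 99.7 kb, and at most 29. An island was a single peak in 36 cases, with widths from 1819 to 11690 bp and a median of 7656.5 bp. Joined across such islands, the stretches formed 60 chains, 42 of 2 stretches and 18 of more, and 125 stretches stood alone. The longest chain was chr4:122449540-141519634, with 2 peaks in 19.1 Mb. The richest in members, on chromosome 15 from 72268085 to 88862782, had 7 stretches and 29 peaks in 16.6 Mb. On chromosome 5 a chain of 6 stretches from 135306831 to 152059429 held 38 peaks in 16.8 Mb and ended 0.422 Mb before the last peak. Chromosome 11 had a chain of 3 from 93663138 to 104509614, with 5 peaks in 10.8 Mb.

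At their borders the stretches met anything from a lone peak to dense groups of peaks. Each border had at least 1 peak within 1 Mb by the rule, a median of 5, quartiles of 2 and 11, and a highest count of 43. Of the 546 borders, 76 (13.9%) had only the border peak, 203 (37.2%) had 3 or fewer, 163 (29.9%) had 10 or more and 49 (8.97%) had 20 or more. The centromere side and the distal side were close, with 8.15 and 7.85 peaks per Mb. The borders of long stretches were sparser: the median was 5 peaks for stretches up to 2 Mb, 4 for those of 2 to 3 Mb and 3 for those above 3 Mb. Windows of neighbouring stretches overlap, so a peak can be counted at more than one border.

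Density within 1 Mb of the borders was 8.01 peaks per Mb, or 0.88 times that of the autosomes and 0.68 times that of the sequence outside stretches. How this compares with the autosomal mean depends on the window. Another stretch cut into 176 of the 546 windows, and with each window ended where the next stretch began the density was 10.4 per Mb, or 1.14 times the autosomal mean. That value was still 0.88 times the density outside stretches. It was 0.77 times once the border peak was left out of the windows, though not of that density. By distance, with border peaks left out and windows ended at the next stretch, there were 8.68 peaks per Mb in the first 0.1 Mb, 8.93 from 0.1 to 0.25 Mb, 8.74 from 0.25 to 0.5 Mb, 9.45 from 0.5 to 1 Mb and 9.83 from 1 to 2 Mb. All 5 lay below the 11.8 per Mb outside stretches, a value that counts border peaks and so is not a like measure. The bases of the border peak also stay in the first 0.1 Mb, where no other peak can lie.

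**Figure D4:**
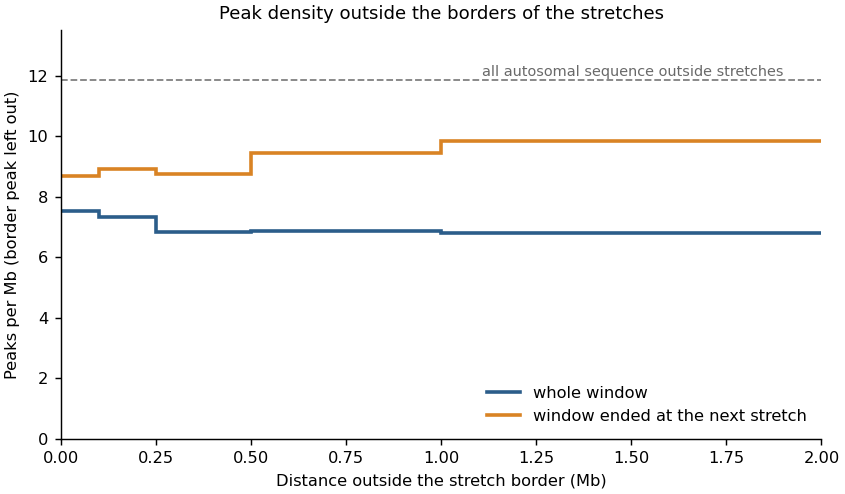
Peaks per Mb by distance outside the border of a stretch (Mb), pooled over 546 borders with the border peak left out, for the whole window (blue) and for windows ended at the next stretch (orange). The dashed line is the density of all autosomal sequence outside stretches, 11.8 per Mb with border peaks counted, above both lines at every distance.

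Single stretches could be very unequal on their 2 sides. In 85 of the 273 the sides differed by 10 or more peaks, the median difference was 6, and 14 had the same count on both. The most unequal was chr19:37827213-39050388 (1.22 Mb), with 1 peak within 1 Mb on its centromere side and 43 on its distal side. The same peak-rich segment, chr19:39050389-40247358, held 49 peaks in 1197 kb and was bounded on its other side by the 2.83 Mb stretch chr19:40247359-43073075, which had 39 peaks on one side and 4 on the other. By general knowledge of the mouse map this segment holds the Cyp2c cluster of cytochrome P450 genes, which was named after its values were seen. On chromosome 17 the stretch chr17:23612882-24921728 (1.31 Mb) had 40 peaks on its centromere side and 1 on its distal side, and a single peak parted it from the 5.38 Mb stretch.

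The median border peak was slightly wider than the median of other peaks. The rule does not use width, except that a wider peak leaves a shorter gap. The 510 border peaks had a median width of 6839 bp, with quartiles of 4983 and 8744 bp, against 6361 bp (4093 to 8131) for the other 21475 autosomal peaks. Peaks beside a gap of 0.2 to 1 Mb that were no border, 3544 in number, had a median of 6380 bp. Widths above 10 kb made up 14.1% of border peaks, 12.1% of the others and 10.1% of those beside the shorter gaps. Widths below 2 kb made up 3.33%, 4.32% and 5.02%. All these peaks come from 1 library, so the shares have no replicate error and were not tested. The quartile ranges overlapped widely, with both quartiles of the border peaks above those of the other peaks.

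On chromosome X, to which the rule does not apply, 4 of 2176 gaps between peaks were longer than 1 Mb, or 0.184% against 1.24% of the autosomal gaps. They measured 1.12 to 2.49 Mb and took 3.97% of the span of X, below the 5.77% of chromosome 3, the lowest autosome.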

How the data were processed

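E14 is a mouse embryonic stem cell line. As deposited by the authors, the peak list has 3 columns, for chromosome and both ends of a peak, with no score or height. It holds 24666 peaks of 1 library. Per the submitters' processing notes, CASAVA, Bowtie2 2.2.2, MACS 1.4.2 and build mm9 were used, with roles and settings not given in the sources used here. Treatment of reads from repeats, which can remove peaks at near-identical copies, is likewise not given.

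Gaps were measured from peak end to next peak start with Python 3.11.15, numpy 2.4.6 and pandas 2.3.3, and binomial intervals with scipy 1.17.1. Positions are printed from 1. The span runs from first to last peak, no peaks overlapped, and a peak counts in a border window by its midpoint. Planted gaps were recovered on simulated data. Genes were named by anchors, listed for the 3 longest stretches and added for 5 others after the data were seen, as were the X chromosome and promoter descriptions and the other genes named as examples. Other length limits, peak subsets and border windows were tried as alternatives. Members and lists were chosen with earlier results of these data known. No test was made. Some anchors on chromosome 5 are not reported here.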

Additional observations from a re-analysis of the deposited data

Results flagged for a closer look

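Chromosome X, which the rule leaves out, also held stretches of over 1 Mb without a peak, and was set apart as data outside the autosomal measurement. There were 4 of them, or 0.184% of its 2176 gaps against 1.24% of the autosomal gaps, and they covered 3.97% of its span of 163 Mb. The longest was chrX:10728951-13218263 (2.49 Mb), and the others measured 1.12, 1.38 and 1.5 Mb. Per 100 Mb of span X held 2.45 stretches, against 11.3 on the pooled autosomes and 3.20 on chromosome 3. No control library was analysed here.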

How the results depend on the processing

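Of 58 recomputed values, 31 were counted as moved, by counting error or, for the number of stretches, by more than 1.5 times. A further 4, ratios of border to autosomal density, crossed 1. The 31 include the longest stretch between midpoints, a single length without counting error. They also include the shares in the last 10% and the last 10 Mb, which are other quantities than the share in the last 25%. With limits of 0.5, 2 and 5 Mb, the number of stretches was 737, 90 and 10 and their share of the span 36.3%, 12.5% and 2.95%. The share of stretch length in the last 25% was 35.9%, 45.6% and 68.3%, against 40.5% at the limit of 1 Mb. The share with another stretch within 1 Mb was 79.5%, 36.7% and 20%. The limits of 2 and 5 Mb gave border densities of 0.758 and 0.542 times the autosomal mean, and the limit of 5 Mb put 60% of stretches in the last 25%. The limit of 0.5 Mb gave a median border peak of 6610 bp. Without peaks under the median width there were 426 stretches on 35.1% of the span, 65.7% had another within 1 Mb, and the border density was 1.08. Without lone peaks (none other within 100 kb) there were 395 stretches, against 273, on 40.7% of the span, and the longest was 20.6 Mb. In that setting 30.4% of stretches and 35.4% of their length lay in the last 25%, and 64.1% had another within 1 Mb. The median border peak was then 6398 bp and the border density 1.23. Between midpoints the longest was 13.41 Mb and the border density 0.826. The last 10% of the span held 17.6% of stretches and the last 10 Mb 15.4%. The border density was 1.00 in windows of 0.5 Mb, 0.810 in windows of 2 Mb, 0.766 without the border peak and 1.14 in windows ended at the next stretch. The causes of these shifts were not tested beyond their construction. Leaving out the 7.07 Mb chromosome 7 stretch, whose unsequenced share was not tested, an alternative chosen after seeing the data, left 22.6% of the span. No replicate could be left out. No paired analysis was possible because 1 library was analysed.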
